A study of Mus musculus with 38 samples.

Results

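The deposited ChIP-seq lists were read at the Bdnf gene in cultured mouse cortical neurons. The window ran from 100 kb before the gene to 100 kb past its end, chr2:109414857-109667203 in build mm9, with the gene at about chr2:109514857-109567203. Every peak that shared at least 1 bp with this window, and every single position inside it, was taken. The window held 35 of the 360417 entries of 32 lists. Of these, 29 were peaks of AP-1 transcription factors, 3 were peaks of acetylated histone H3 lysine 27 (H3K27ac), and 3 were entries of lists of single positions.

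Neurons came from cortices of C57BL/6 mouse embryos at day 16.5 and were used on day 7 in vitro. All were silenced overnight with 1 µM TTX, a blocker of sodium channels, and 100 µM DL-AP5, a blocker of NMDA receptors. The unstimulated neurons stayed silenced, and the others received KCl, which depolarises them, for 2 h. The AP-1 lists came from 22 libraries in 12 groups of 1 or 2 libraries: c-Fos (antibodies sc52 and sc7202) and FosB (sc48) in biological samples 3 and 4, JunB (sc46) in biological sample 4, each in both conditions, and KCl neurons of biological samples 5 and 6 infected with control shRNA, c-Fos shRNA (c-Fos sc52 ChIP) or FosB shRNA (FosB ChIP). H3K27ac was listed once per condition, with biological samples 1 and 2 merged, so it has no replicate error. AP-1 lists held 557 to 28885 peaks, and their read depth is unknown. Such cultures can hold glia beside neurons, and the cell type was not checked against marker genes because no gene annotation of build mm9 was used.

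Bdnf encodes brain-derived neurotrophic factor, a secreted neurotrophin that acts through the receptor TrkB on neuronal survival, synapses and dendrites. The gene has several alternative promoters, each with its own 5′ exon spliced to a shared exon that holds the coding sequence. It is induced by calcium entry, and it counts as a late activity-regulated gene because its transcripts build up after those of the immediate early genes. c-Fos and FosB are products of immediate early genes that pair with Jun proteins such as JunB to form AP-1, which binds the letters TGANTCA. H3K27ac marks active promoters and enhancers, and CBP is one of the enzymes that deposit it.

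RefSeq lists 7 starts of Bdnf in build GRCm38.p6, at 0, 2.33, 17.74, 18.33, 19.71, 34.68 and 48.22 kb from the first. The mm9 gene is 52347 bp long and the RefSeq gene 52344 bp. Distances within the gene were therefore set side by side to the nearest few bases, and no position was converted between builds. The first 3 starts are shown because 3 AP-1 sites of the gene lay over or beside them. Each sequence runs 5′ to 3′ on the plus strand from 250 bases before the start to 50 bases after it, and capitals mark the matched letters named after the sequences.
Bdnf start 1, chr2:109674450-109674749: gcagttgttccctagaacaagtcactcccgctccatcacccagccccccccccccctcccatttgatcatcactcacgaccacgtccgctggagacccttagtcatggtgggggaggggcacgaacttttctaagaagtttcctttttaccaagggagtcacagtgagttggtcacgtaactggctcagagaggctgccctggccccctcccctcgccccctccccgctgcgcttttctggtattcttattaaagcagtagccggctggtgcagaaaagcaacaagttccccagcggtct
Bdnf start 2, chr2:109676782-109677081: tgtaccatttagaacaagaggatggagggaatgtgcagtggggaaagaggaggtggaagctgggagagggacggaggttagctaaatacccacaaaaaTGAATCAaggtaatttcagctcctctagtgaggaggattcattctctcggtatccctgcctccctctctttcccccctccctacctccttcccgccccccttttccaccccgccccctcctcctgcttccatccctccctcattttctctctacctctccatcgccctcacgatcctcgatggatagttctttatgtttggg
Bdnf start 3, chr2:109692186-109692485: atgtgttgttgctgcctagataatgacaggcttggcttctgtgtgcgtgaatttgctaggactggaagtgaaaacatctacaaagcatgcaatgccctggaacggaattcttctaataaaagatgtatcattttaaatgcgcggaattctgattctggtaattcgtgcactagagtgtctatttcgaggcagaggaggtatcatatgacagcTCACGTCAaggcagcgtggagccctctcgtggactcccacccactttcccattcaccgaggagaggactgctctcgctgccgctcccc
Both strands of all 7 sequences were searched. TGANTCA was found at 1 start, as TGAATCA 152 bases before start 2. By distance this match lay in no listed AP-1 peak. The AP-1 site over start 1 ended at 0.54 kb, and the next began at 2.41 kb, after start 2. TGANTCA was in 2565 of the 32851 RefSeq promoters of the same length (7.81%). TGACGTCA, the cAMP response element, was found at none of the 7 and in 1.79% of all promoters. TCACGTCA, known from the calcium-responsive promoter IV of Bdnf and searched after the sequence was seen, began 38 bases before start 3 and was in 0.441% of all promoters. None of these letters overlapped one another.

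In silenced neurons a single H3K27ac peak lay inside the gene, and after KCl it was 2.64 times as wide and a further peak was listed deeper in the gene. The unstimulated peak, chr2:109516575-109519445, was 2871 bp wide and ran from 1.72 to 4.59 kb after the gene's start. It spanned the distance of start 2 and not that of start 1. Its score by the authors, which rises with the negative log10 of the peak's p-value, was 990.72, rank 5331 of 30239. The first KCl peak, chr2:109513541-109521113, was 7573 bp wide and ran from 1.32 kb before the gene to 6.26 kb into it. It reached 3034 bp further upstream and 1668 bp further downstream, and so took in start 1 as well. Its score was 2367.25, rank 2497 of 29418, and 1.37% of the KCl peaks were at least as wide. 27.6% of the unstimulated list was at least as wide as the unstimulated peak.

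Few peaks in the genome widened as much. Among the 10357 KCl peaks that overlapped an unstimulated peak and were absent from the authors' distal list (called non-distal here), the median ratio of widths was 1.06, and 10 peaks (0.0966%), this one included, reached the ratio at Bdnf. Over all 24089 KCl peaks with an unstimulated partner the median was 1.03 and the share was 0.224%. These shares were computed after the 2 peaks had been seen. They describe 1 merged list per condition, and no test was made. In the window H3K27ac covered 2871 bp without stimulation and 11211 bp after KCl, a factor of 3.90. For the whole genome the total covered length differed by a factor of 1.01. That total sums gains and losses, so it is not a matched background. The factor in other stretches of the window's length was not computed.

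The further KCl peak, chr2:109531556-109535193, had no unstimulated partner. It was 3638 bp wide and lay 16.70 to 20.34 kb after the gene's start, 10442 bp from the first KCl peak. Starts 3, 4 and 5 fell within its distances, and start 3 is the one with TCACGTCA. Its score was 483.35, rank 11074 of 29418. A KCl peak without an unstimulated partner was not rare over the whole list (18.1%) but was rarer among non-distal peaks (4.65%), to which this one belongs. In all, the unstimulated H3K27ac peak covered the distance of 1 of the 7 starts and the KCl peaks those of 5, with starts 6 and 7 outside. The distal lists held no H3K27ac peak of the window in either condition.

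**Figure D1:**
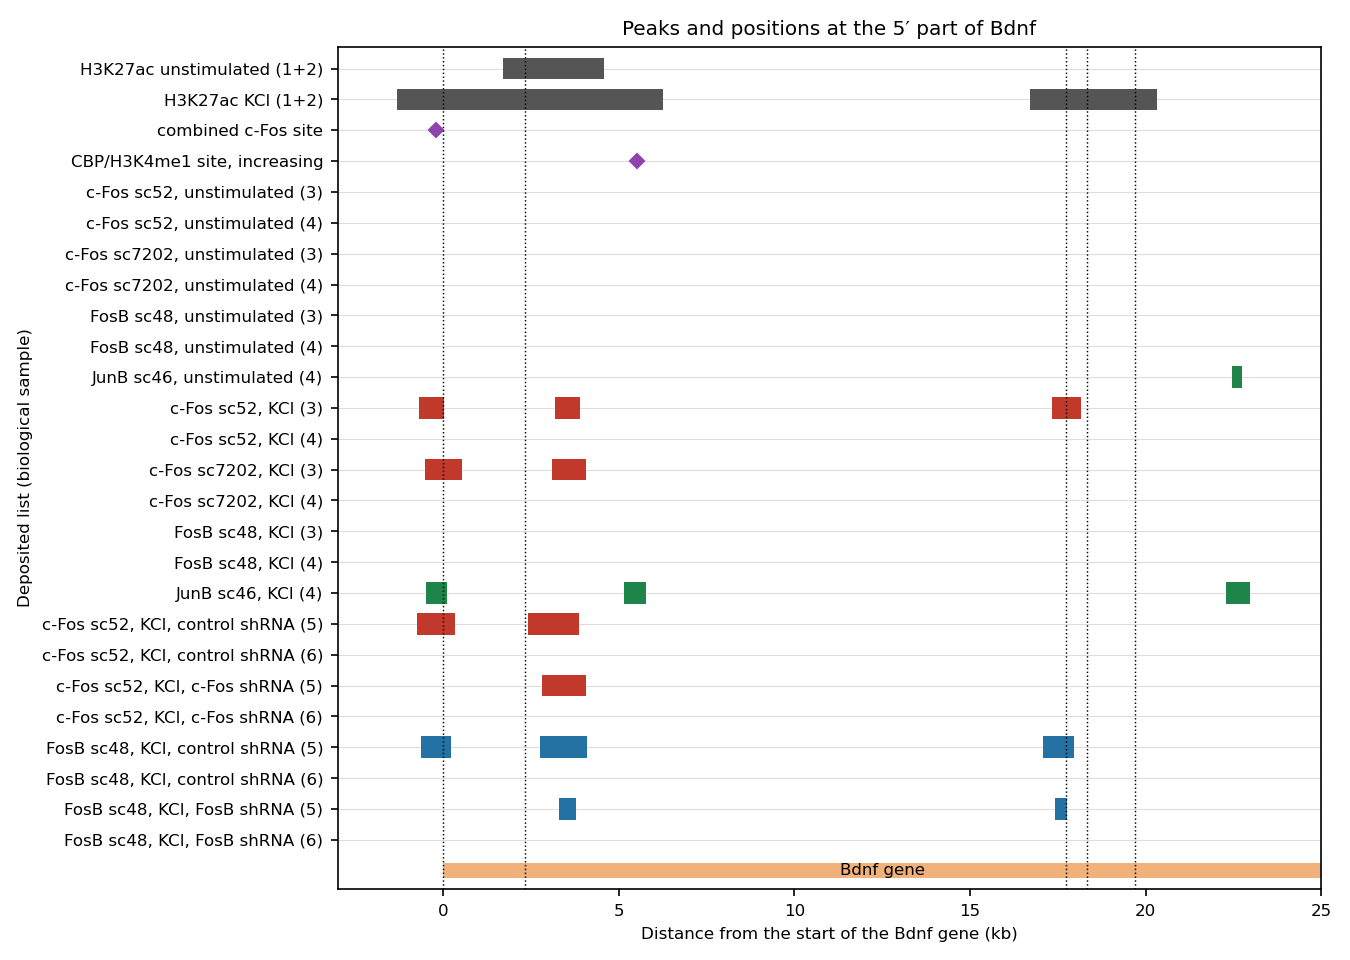
Peaks and positions of each list over the first 25 kb of Bdnf, in kb from the gene's start, with the biological sample in parentheses, bars for peaks, diamonds for single positions and dotted lines at the distances of the RefSeq starts. The KCl H3K27ac peaks span 5 starts and the unstimulated peak 1, and the AP-1 peaks of biological samples 3 and 5 stand over start 1, after start 2 and at start 3.

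Of the 29 AP-1 peaks in the window, 28 were in KCl lists and 1 in an unstimulated list. Over the whole genome the KCl lists held 92.6% of all AP-1 peaks, so the count is near that of the lists anywhere. Of the 7 unstimulated lists 6 had none, and 10 of the 15 KCl lists had at least 1. Neighbouring stretches of the window's length over the genome give the background. In those 6 unstimulated lists 75.2% to 97.2% of stretches had no peak. In the 15 KCl lists 12.8% to 77.2% of stretches had at least 1. Merged where they shared at least 1 bp, the 29 peaks made 11 sites, of which 1 lay upstream, 6 over the start or in the gene, and 4 downstream. With scores of at least 100 alone, 5 sites were left. 4 sites stood in the KCl H3K27ac peaks and 7 outside them. No site was in all 6 KCl lists of c-Fos (without shRNA or with control shRNA), and 3 sites were in 3 of them. The same counts were not computed for merged sites over the whole genome. The counts of sites here therefore cannot be called particular to the window.

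The site over the start of the gene, chr2:109514106-109515392, ran from 0.75 kb before start 1 to 0.54 kb after it. For c-Fos it was listed in biological sample 3 with both antibodies (score 82.06 with sc52, 174.04 with sc7202) and in biological sample 5 with control shRNA (158.04). The sc7202 score ranked 5746 of 28885. FosB in biological sample 5 with control shRNA had a score of 96.93 there, and JunB in biological sample 4 had 58.91. The c-Fos lists of biological samples 4 and 6 and all unstimulated lists had no peak there.

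The authors' list of combined c-Fos sites held 1 position in the window, and it lay in this site, at chr2:109514654. That is 203 bp before the gene's start, 1921 bp outside the unstimulated H3K27ac peak and 1113 bp inside the KCl peak. Few combined sites lay in a KCl H3K27ac peak without lying in an unstimulated one (9.45% of 12594), and few lay in a non-distal KCl peak (4.65%). Peaks of 3 of the 6 KCl c-Fos lists covered the position, while 25.4% of combined sites were covered in 3 or fewer. It was also covered by 1 of 4 KCl FosB lists and by the KCl JunB list, as were 82.4% of combined sites in at least 1 FosB list and 66.7% in the JunB list.

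The site with most libraries, chr2:109517263-109518966, lay 2.41 to 4.11 kb into the gene, downstream of start 2 and inside the H3K27ac peak of both conditions. c-Fos scores there were 71.81 with sc52 and 112.28 with sc7202 in biological sample 3, and 151.79 in biological sample 5 with control shRNA. FosB in biological sample 5 with control shRNA had 116.83. It was also listed with both knockdowns of biological sample 5: the c-Fos score was 125.34 with c-Fos shRNA, rank 2505 of 7808, and the FosB score was 160.95 with FosB shRNA, rank 1552 of 9941. This was the highest rank of any AP-1 peak in the window, in the top 15.6% of its list. Neither JunB list had a peak there, nor did any list of biological samples 4 and 6.

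A site in the further KCl H3K27ac peak, chr2:109531936-109533002, covered 17.08 to 18.14 kb, and start 3 lies within these distances. c-Fos was listed there in 1 of the 6 KCl lists, sc52 of biological sample 3, with a score of 117.24 (rank 7353 of 22368). FosB was listed in biological sample 5, with 83.13 under control shRNA and 116.67 under FosB shRNA. The c-Fos lists of biological sample 5 and the sc7202 list of biological sample 3 had no peak there, so the binding next to start 3 rests on 1 library for c-Fos.

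The authors' lists of distal sites with CBP and H3K4me1, a histone mark of enhancers, held 1 position in the window. The full list is labelled as taken from Kim et al. The authors placed the position in the class with increasing H3K27ac. The classes of constant, decreasing and no H3K27ac had none. The position, chr2:109520365, lay 5508 bp after the gene's start, 920 bp past the end of the unstimulated H3K27ac peak and 748 bp before the end of the KCl peak. The widening of the H3K27ac peak thus took in this position as well as the combined c-Fos site. The position's class is itself named for increasing H3K27ac, so its place in the gained part is not a separate result. The increasing class was 12.4% of the 11830 CBP and H3K4me1 sites. The classes of constant, decreasing and no H3K27ac held 800, 738 and 1886, so most sites were in no class. Of the 1468 increasing sites, 1.36% (20) lay in a non-distal KCl peak. These sites are labelled distal, so a low share in non-distal peaks comes with that label. At Bdnf a site labelled distal thus lay in a KCl peak absent from the distal H3K27ac list. No c-Fos or FosB list had a peak over the position, and the KCl JunB list had one, at chr2:109520010-109520628 with a score of 71.48. Among increasing sites, 22.7% had no c-Fos peak in any of the 6 KCl lists, and 11.4% of these held a KCl JunB peak.

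JunB had the only AP-1 peak of the silenced neurons. It lay 22.46 to 22.75 kb into the gene, past the KCl H3K27ac peaks, with a score of 121.6 (rank 906 of 3126). After KCl a JunB peak was listed at the same place with a score of 53.02 (rank 17941 of 19346). The site, chr2:109537133-109537813, was in no c-Fos or FosB list. The KCl JunB list had 5 peaks in the window, and 1 of them overlapped an unstimulated JunB peak, against 8.31% over the whole list. JunB has 1 library per condition, so these values have no replicate check.

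Downstream of the gene 4 sites were listed, all outside H3K27ac peaks and all 37.44 kb or more past its end. The site at chr2:109610732-109611379, 95.88 to 96.52 kb from the gene's start, was the only one with c-Fos in both biological samples 3 and 4, with sc7202 scores of 63.94 and 68.86. c-Fos in biological sample 5 with control shRNA had 61.38 there. A site at chr2:109604643-109605491 was listed in biological samples 4 and 6 only: c-Fos sc7202 (67.16), c-Fos sc52 with control shRNA (79.07), FosB with control shRNA (63.07) and JunB (95.63). The other 2 sites came from 1 library each, JunB at 93.71 kb with a score of 123.79 and FosB at 125.61 kb with a score of 58.1. The coding genes next to Bdnf in RefSeq are Kif18a before it and Lin7c after it, and no peak was assigned to a gene by distance.

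The remaining sites were weak or in 1 library. A c-Fos site 56.48 to 55.81 kb before the gene had scores of 57.47 (sc7202, biological sample 3) and 51.6 (control shRNA, biological sample 5). A c-Fos peak 36.35 kb into the gene, in the sc7202 list of biological sample 3, had a score of 63.59.

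**Figure D2:**
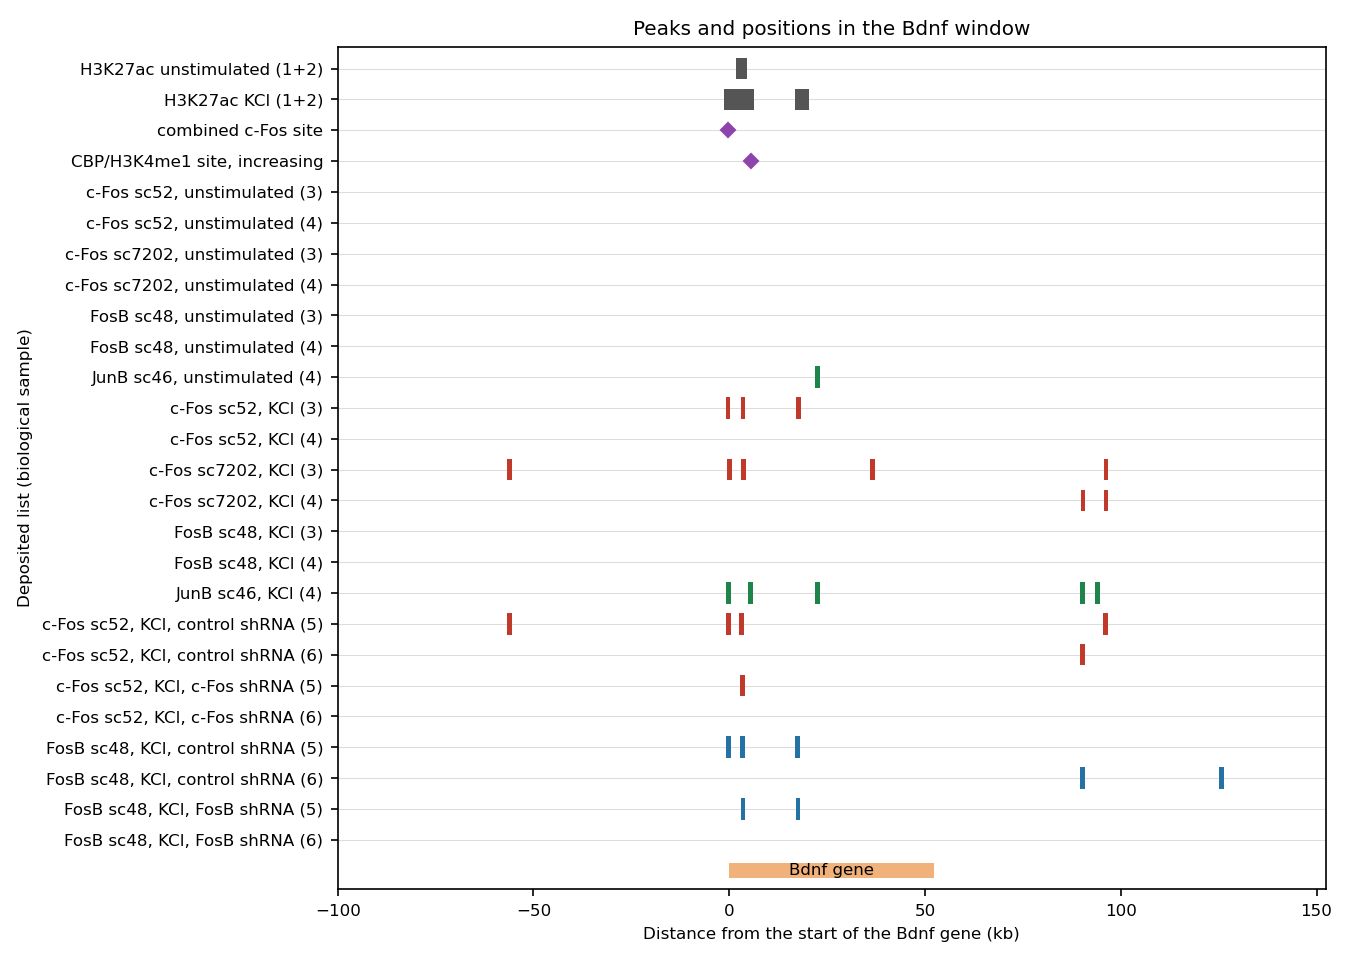
The same lists over the whole window, in kb from the gene's start, with the gene as a bar at the foot, peaks as bars and single positions as diamonds. The H3K27ac peaks of the window lie between 1.32 kb before the start and 20.34 kb after it, while the AP-1 peaks run from 56.48 kb before the start to 125.75 kb after it.

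Within the window, AP-1 peaks in H3K27ac stood higher in their lists than those outside. Whether the same holds over the whole lists was not tested. The 15 AP-1 peaks inside the KCl H3K27ac peaks had ranks from the top 15.6% to 80.8% of their own lists, with a median of 32.9%. The 14 outside ranked from 27.4% to 96.3%, with a median of 72.2%. The ranges overlapped, and peaks of the same site or library are not independent, so no test was made. Of the 15 peaks of the 6 KCl c-Fos lists, 7 lay in a KCl H3K27ac peak, near the share over the whole lists (38.2%). Of the 29 peaks, 11 had a score of at least 100, and the median rank of all 29 was at 54% of the list.

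**Figure D3:**
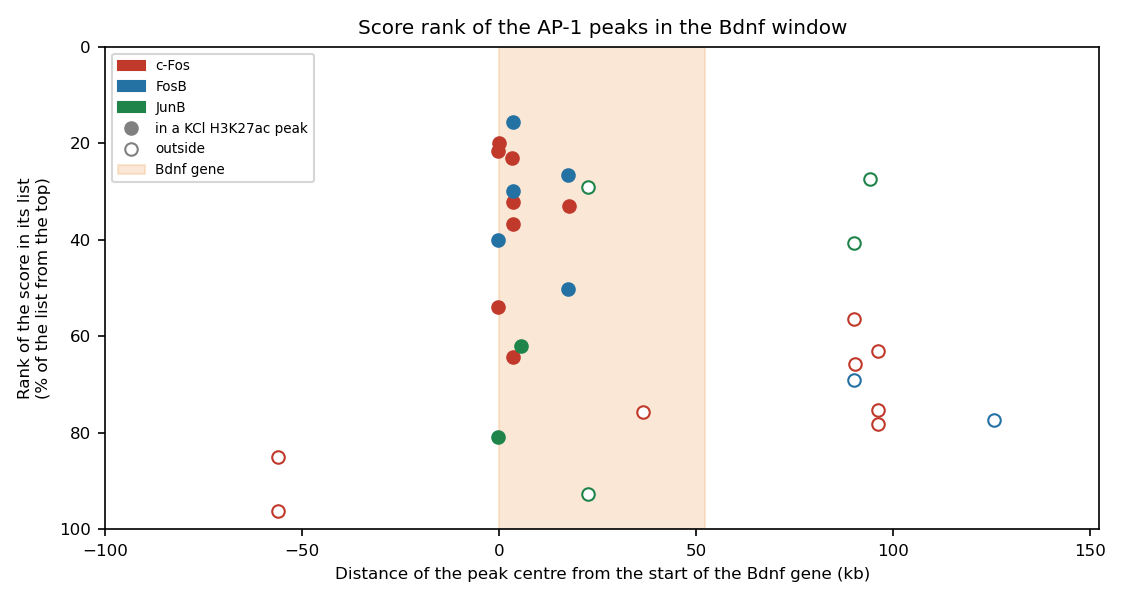
Rank of each of the 29 AP-1 peaks by score within its own list, as percent of the list from the top, against the distance of the peak's centre from the gene's start in kb, filled where the peak lies in a KCl H3K27ac peak. The ranks run from 15.6% to 96.3%, and the 2 peaks before the gene stand at 85.1% and 96.3%.

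c-Fos lists held no peak of the window in silenced neurons and a mean of 2.5 after KCl, a difference that did not pass the test. In the unstimulated c-Fos lists the count was 0 in all 4. After KCl it was 3 (sc52) and 5 (sc7202) in biological sample 3, and 0 (sc52) and 2 (sc7202) in biological sample 4. The groups overlapped at 0. The mean after KCl was 2.5 ± 2.08 (SD, n = 4), and the exact two-sided permutation test gave p = 0.143, where the smallest p over 8 libraries is 0.0286. The 2 antibodies were used on the same 2 biological samples, so these libraries are not 4 independent cultures. With the antibodies averaged within each biological sample, the counts after KCl were 4 and 1 against 0 and 0 (exact two-sided permutation test, p = 0.333, the smallest that 2 against 2 allows). List length moved with the counts: the unstimulated c-Fos lists held 557 to 3669 peaks and the KCl lists 6808 to 28885. With each list kept to the length of the shortest, all counts and the difference were 0. That cut kept 557 peaks, and the best rank of a window peak in these lists was 5746. It therefore removed every window peak and cannot show a difference. These p-values measure the spread between these libraries.

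FosB counts were 0 in both unstimulated lists and 0 in both KCl lists of biological samples 3 and 4 (exact two-sided permutation test, p = 1). With every count at 0 the test could give no other value, so it decides nothing. Those KCl lists held 10898 and 4899 peaks. The FosB lists with control shRNA, from other biological samples, were longer (22933 and 14139 peaks) and had 3 and 2 peaks in the window.

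Counts of this size were common in the genome. Over 10477 neighbouring stretches of the window's length, 57.8% held at least 1 combined c-Fos site, as the window did. The share of stretches with at least as many peaks as the window was 21.3% for sc7202 of biological sample 3 (5 peaks) and 34.7% for sc52 (3 peaks). It was lowest for the KCl JunB list, 9.18% for 5 peaks. For H3K27ac it was 69% without stimulation and 53.1% after KCl, so the window was not rich in H3K27ac peaks by number.

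**Figure D4:**
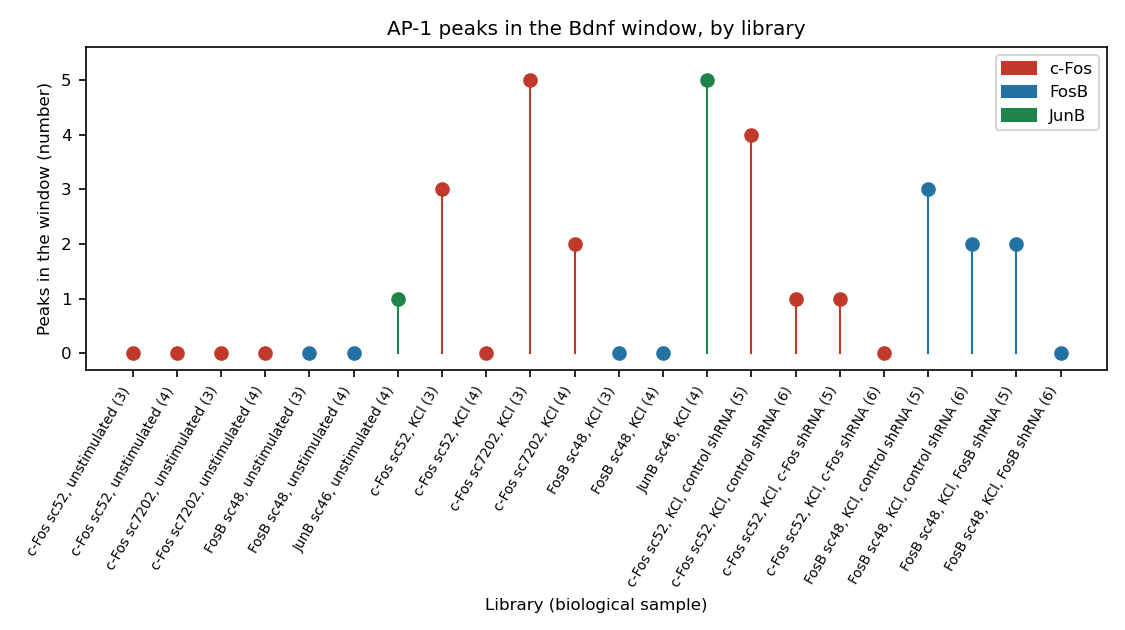
Number of AP-1 peaks in the window in each of the 22 libraries, with the antibody, condition, shRNA and biological sample on the horizontal axis and the factor by colour. The 6 unstimulated c-Fos and FosB lists are at 0, and the KCl lists run from 0 to 5.

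Knockdown libraries had fewer peaks in the window than the controls of the same biological sample. With 2 libraries in each group p could not fall below 0.333, so the tests could not decide either difference. With control shRNA, c-Fos had 4 peaks in biological sample 5 and 1 in biological sample 6, and with c-Fos shRNA it had 1 and 0. The means were 2.5 ± 2.12 and 0.5 ± 0.707 (SD, n = 2 each), and the groups met at 1 (exact two-sided permutation test, p = 0.667, smallest possible 0.333). FosB had 3 and 2 peaks with control shRNA and 2 and 0 with FosB shRNA, with means of 2.5 ± 0.707 and 1 ± 1.41 (SD, n = 2 each; exact two-sided permutation test, p = 0.667). The groups met at 2. The knockdown lists were also shorter: for c-Fos 7808 and 1793 peaks against 23578 and 19131, and for FosB 9941 and 7180 against 22933 and 14139. With each list kept to the length of the shortest of its comparison, the c-Fos difference went from -2 to 0 and the FosB difference from -1.5 to 0.5. For c-Fos the cut kept 1793 peaks, and the best rank of a window peak was 2505. All c-Fos counts thus became 0, and this cut cannot show a direction. The FosB difference was also 0.5 with scores of at least 100.

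The sites found under knockdown in biological sample 5 were those after start 2 and at start 3. For c-Fos, 1 of 4 control peaks was found again, the site downstream of start 2 in the H3K27ac peak of both conditions. Over the whole list of biological sample 5 this share was 22.5%, and among peaks in non-distal KCl H3K27ac peaks it was 64.9%, where the window had 1 of 2. The peak over start 1, with the higher control score (158.04 against 151.79), was not listed under c-Fos shRNA. For FosB, 2 of 3 control peaks were found again, after start 2 and at start 3, against 27.9% over the list, and the peak over start 1 was not. All 3 lay in non-distal KCl H3K27ac peaks, where the c-Fos share was above that of the whole list. The share in such peaks was not computed for FosB, so 27.9% is not a matched background. In biological sample 6, 0 of 1 c-Fos peak and 0 of 2 FosB peaks were found again, against 5.45% and 30.1% over those lists. In biological sample 5 the peak over start 1 was thus listed with control shRNA for both factors and with neither knockdown. These are single libraries, and no test was made.

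The c-Fos peaks at the starts divided by biological sample. Those over start 1 and after start 2 came from biological samples 3 and 5, and the c-Fos peak at start 3 from biological sample 3. All FosB peaks at these starts came from biological sample 5, and the FosB lists of biological sample 3 had no peak in the window. The c-Fos and FosB lists of biological samples 4 and 6 had none of these peaks. The JunB list of biological sample 4 did have the site over start 1. The lists of biological samples 3 and 5 were the longer of each pair. The part of list length in this division was not tested.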

How the data were processed

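The ChIP-seq lists were used as deposited, without reads. BWA and mm9 are named in the submitters' processing notes, and peak names begin with MACS, per the deposited files. The deposited score of a peak follows the MACS scale of its p-value (lowest 50 in AP-1 lists, for 1e-05) and was used only within a list. Other deposited lists give positions in bp without a value. The sources used here do not say how the combined c-Fos sites and classes were made. Read depth is unknown, so no interval was set on a count.

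Printed starts are 1-based, and an overlap needed 1 bp. Counts per library were compared with exact two-sided permutation tests (Python 3.11.15), checked on small fixed inputs. The finding of overlaps was checked on simulated peaks. Figures used matplotlib 3.10.9. Libraries of 1 biological sample share its number in the labels, which pairs them. Promoter sequences are RefSeq's (GRCm38.p6, matched by symbol, 7 for Bdnf). Described in full were all H3K27ac peaks and positions, c-Fos sites in at least 3 of 6 KCl c-Fos lists, and the 2 sites of FosB or JunB alone in most libraries. Other sites, and the motif TCACGTCA, were chosen after their values or sequence were seen. The window and lists were chosen with earlier results of these data known. Alternatives were a score of at least 100 (1e-10), smaller windows, equal or scaled list lengths, other overlap rules, single antibodies, left-out biological samples, a replicate block and, added after the data were seen, antibodies averaged within each biological sample.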

Additional observations from a re-analysis of the deposited data

How the results depend on the processing

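The difference in c-Fos peaks after KCl (2.5 per list) kept its direction with scores of at least 100 (0.75), in the gene alone (1.5), with 50 kb on each side (2.25), per 10000 peaks of the list (1.08) and with sc52 (1.5) or sc7202 (3.5) alone. With lists kept to the length of the shortest it was 0, because no window peak was left in any list. It was 1 to 4 when biological sample 3 or 4 was left out. Biological sample was also used as a replicate block, with paired sign flips (exact permutation test). The c-Fos difference of 2.5 then had p = 0.25 over 4 pairs of antibody and biological sample (exact permutation test). Averaged antibodies, an alternative chosen after seeing the data, gave p = 0.5 over the 2 biological samples (exact permutation test), the smallest possible. The c-Fos shRNA difference of -2 and the FosB shRNA difference of -1.5 each had p = 0.5 (exact permutation test). The FosB KCl difference stayed 0. With so few pairs the exact permutation test could not reach the threshold of 0.05, so the block could not decide any of these differences. The c-Fos shRNA difference (-2) was -3 to -1 with 1 biological sample left out. With lists of equal length it was 0, again because no window peak was left. The FosB shRNA difference (-1.5) turned to 0.5 both with scores of at least 100 and with lists of equal length, and was -2 to -1 with 1 biological sample left out. The cause was not tested. The 11 AP-1 sites became 5 with scores of at least 100, and 10 to 11 without biological sample 5 or 6. The count without biological sample 3 or 4 was not computed, and several sites came from biological sample 3 alone or 4 alone. The count of KCl H3K27ac peaks without an unstimulated partner, 1, was 0 in the distal lists and 1 with higher scores, a 50% overlap or the gene alone. Depth is unknown, so absence of binding cannot be read from a missing peak.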

Other observations

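The nearest H3K27ac peaks outside the window are given by distance, and how common such distances are in the genome was not computed. The nearest unstimulated peak before the gene lay 392.7 kb away, with a score of 304.45 by the authors. After KCl a nearer one was listed 114.3 kb before the gene, with a low score of 86.8. Past the gene, the nearest peak began 162.8 kb beyond its end in both conditions, with scores of 1175.8 without stimulation and 2653.14 after KCl, each from its own list. The nearest combined c-Fos sites outside the window were 432.6 kb before the gene and 226.3 kb past its end, and the nearest CBP and H3K4me1 sites 847 kb before it and 216.5 kb past its end.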
